A study of Mus musculus with 6 samples.

Results

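The genes described here are 10 that encode enzymes and a carrier of mitochondrial fatty acid oxidation, namely Cpt1a, Cpt2, Slc25a20, Acadm, Acadl, Acadvl, Hadha, Hadhb, Etfdh and Eci1. They were taken as the entries of the expression table whose symbol equals one of these names. All 10 were found among 24062 listed genes, and all 10 were among the 13734 genes with enough reads to be tested.

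The study asked how the orphan nuclear receptors NR4A1 and NR4A3 bear on the proliferation of mouse hematopoietic stem cells (HSC), the rare marrow cells from which all blood lineages derive. Bulk RNA sequencing was done on HSC from CDKO mice, of genotype Nr4a1 fl/fl; Nr4a3-/-; Rosa26-ERt2, and from control mice, of genotype Nr4a1 fl/fl; Nr4a3-/-. Mice of both groups received tamoxifen at 120 mg per kg in 4 daily injections, and HSC were sorted on day 5. Each group had 3 libraries, and each library was a pool of 3 to 5 mice. Both groups therefore carry the Nr4a3-/- genotype and both were exposed to tamoxifen. Only CDKO carries the Rosa26-ERt2 allele, with which tamoxifen was meant to excise Nr4a1, so effects of that allele and of Nr4a1 loss cannot be told apart. Age, sort gate and batch are not given in the labels, nor whether the mice of different pools were treated and sorted on separate occasions, so p-values measure the spread between these pools.

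Fatty acid oxidation begins when a fatty acid is bound to coenzyme A and passed into the mitochondrion as a carnitine ester. CPT1A forms that ester at the outer membrane, SLC25A20 carries it across the inner membrane and CPT2 returns it to coenzyme A. Acyl-CoA dehydrogenases then open each round of chain shortening, the trifunctional protein built from HADHA and HADHB completes it for long chains, and electrons leave through the electron transfer flavoprotein and its dehydrogenase ETFDH. In HSC, fatty acid oxidation downstream of PML and PPARδ is known for its part in stem cell maintenance.

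The 10 genes did not move as a block in CDKO HSC. The trifunctional protein genes Hadha and Hadhb and the dehydrogenase genes Acadvl, Acadm and Acadl rose. The carnitine shuttle genes Cpt1a and Cpt2 and the isomerase gene Eci1 fell. Slc25a20 and Etfdh did not pass the test. Changes were small apart from Hadha, whose mean level in CDKO was 1.89 times that in control, and Hadhb, whose mean was 1.45 times that in control.

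A gene was called changed when its difference in log2(CPM + 1), CDKO minus control, had an adjusted p below 0.05 in limma fitted over all 13734 genes. CPM is the count of a gene scaled to a library total of 1000000 reads. By this rule 8 of the 10 genes passed, of which 5 were higher and 3 were lower in CDKO. Over all genes tested 66.2% passed, 31.1% higher in CDKO and 35.2% lower. The CDKO and control values of 8 of the 10 genes did not overlap, against 70.6% of all genes tested. A share of 8 in 10 that passed thus stands near what any gene had in this comparison. The median difference of the 10 genes was 0.16, beside a median of -0.02 over all genes tested. The authors' deposited table of their own DESeq2 comparison has the same 8 genes below an adjusted p of 0.05.

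**Figure D1:**
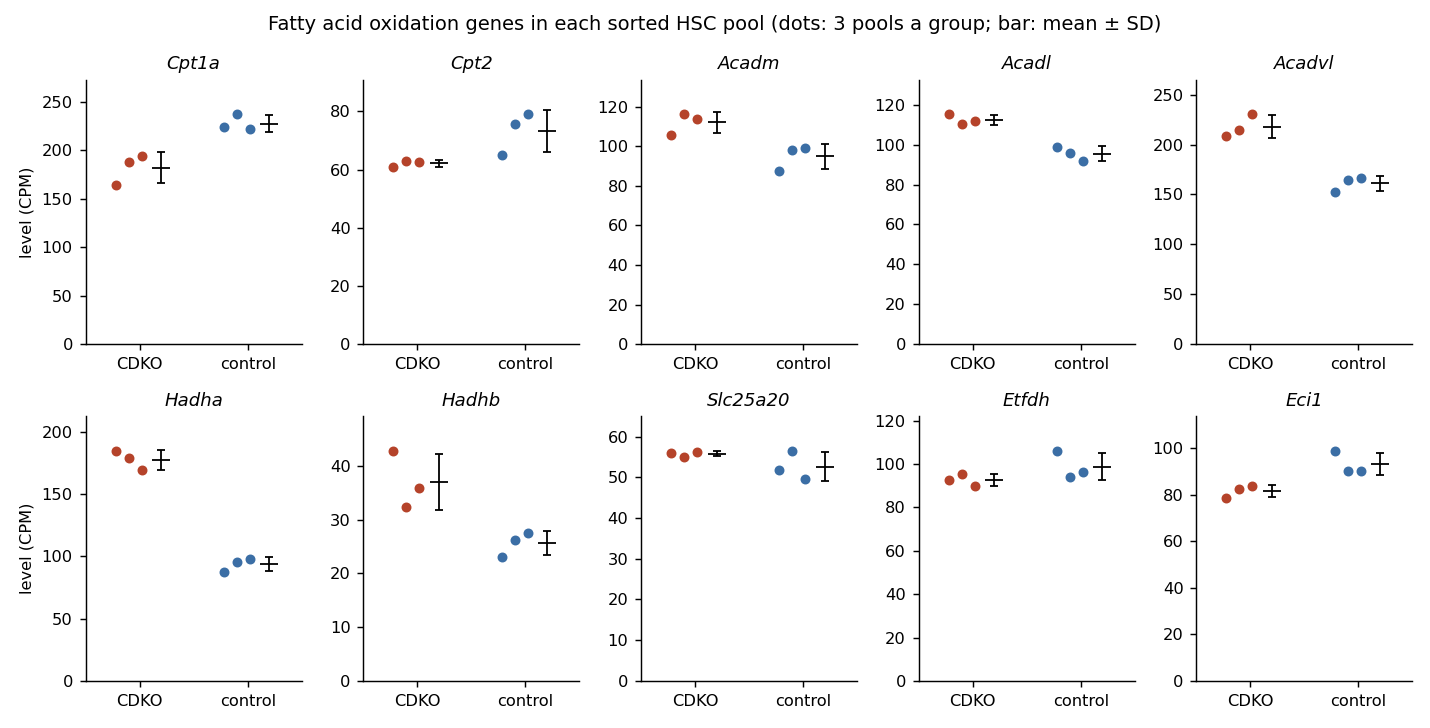
Level of each of the 10 fatty acid oxidation genes in CPM (vertical axis, from 0), with the 3 CDKO pools left of the 3 control pools. Dots are single pools and the bar is the mean ± SD. Hadha shows the widest gap, 177 CPM in CDKO against 93.6 CPM in control, while the dots of Slc25a20 and Etfdh overlap between groups.

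The libraries held 32863805 to 42772261 reads in CDKO and 36464747 to 42348692 reads in control, and a count of 3 reads corresponded to 0.0701 to 0.0913 CPM. Over the 10 genes a library held between 905 reads (Hadhb) and 9855 reads (Acadvl). Nr4a1, floxed in both groups, averaged 9.13 ± 0.623 CPM in CDKO and 13.8 ± 1.18 CPM in control (SD, n = 3 each), a difference of -0.55 (limma adjusted p = 0.00203). Gene totals do not separate the floxed exons from the rest of the transcript. Nr4a3 had no read in any library. Its relative Nr4a2 did not pass, with 2.43 ± 1.22 CPM in CDKO and 3.86 ± 0.282 CPM in control (limma adjusted p = 0.0546). The 14 HSC markers, led by Kit, were all detected and tested, and their summed level was 5526 to 5737 CPM in CDKO and 5966 to 6218 CPM in control. Markers of mature myeloid cells moved with the groups. The 12 neutrophil markers, led by Ngp, Ltf and S100a9, all fell, with sums of 19.1 to 96.0 CPM in CDKO against 826 to 1081 CPM in control. The highest CDKO sum was that of replicate 3. Of 9 basophil, mast cell and eosinophil markers 8 fell and Gzmb rose. The sums were 18.7 to 21.99 CPM in CDKO against 399 to 450.4 CPM in control. Gzmb averaged 3.13 ± 0.42 CPM in CDKO and had no read in control, and Cma1 had no read in any library. Of 10 erythroid markers 8 fell, with sums of 2341 to 2558 CPM in CDKO against 2988 to 3230.1 CPM in control, most of it Car2, while Hbb-bt, Hba-a1 and Hba-a2 had no read. Of 8 macrophage markers 3 rose (C1qa, C1qb and C1qc) and 4 fell, Mrc1 and Vcam1 among them, with sums of 33.6 to 40.7 CPM in CDKO and 45.1 to 52.6 CPM in control. Of 5 lymphocyte markers 3 rose and 1 fell, with sums of 138 to 139 CPM in CDKO and 100.3 to 111 CPM in control, and with Cd3e, Cd3g and Ms4a1 at 0. Of 5 stromal and adipocyte markers 1 rose and 2 fell, with sums of 60.7 to 63.2 CPM in CDKO and 70.9 to 81.7 CPM in control, and with Plin1 at 0. Col1a1 averaged 8.72 ± 0.788 CPM in CDKO and 0.349 ± 0.0652 CPM in control, and Pdgfra had no read in CDKO and 5.30 ± 0.686 CPM in control. The part of these cells in the results below was not tested, and in bulk RNA fewer cells of a type and less RNA per cell cannot be told apart.

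Of the shuttle genes, Cpt1a encodes the enzyme generally regarded as rate-limiting for entry of long-chain fatty acids, the step that malonyl-CoA inhibits. Cpt1a had 164, 188 and 194 CPM in the CDKO pools, against 224, 237 and 222 CPM in the control pools. Every CDKO pool lay under every control pool. The means were 182 ± 16.002 CPM in CDKO and 228 ± 8.43 CPM in control (SD, n = 3 each), which differed by -0.32 ± 0.06 in log2(CPM + 1) (SE, limma adjusted p = 0.000691). With single pools left out in turn the difference ran from -0.37 to -0.25 and passed each time.

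Cpt2 encodes the inner membrane transferase. It had 60.9, 63.1 and 62.8 CPM in CDKO, against 65.2, 75.8 and 79.1 CPM in control. The groups did not overlap, although control replicate 1 lay close to the CDKO pools. The difference was -0.23 ± 0.07 (SE, limma adjusted p = 0.0163). This call depended on single control pools: the adjusted p was 0.0678 without control replicate 2 and 0.0799 without control replicate 3.

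Slc25a20 encodes the carnitine-acylcarnitine carrier between these transferases. It had 55.9, 55.1 and 56.3 CPM in CDKO, against 51.8, 56.5 and 49.6 CPM in control. The groups overlapped, and the difference of 0.08 did not pass (95% interval -0.06 to 0.23, limma adjusted p = 0.284). The interval allows a rise up to that upper bound as well as a small fall.

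Other genes that feed the shuttle were described from a list of 27 genes of fatty acid uptake, activation and carnitine supply, of which 22 were tested. In CDKO 6 of them rose and 9 fell, with a median difference of -0.00. This count and those of the lists below stand beside 31.1% of all genes tested that were higher in CDKO and 35.2% lower. Slc22a5, the plasma membrane carnitine transporter, averaged 51.8 ± 7.84 CPM in CDKO and 30.7 ± 1.30 CPM in control, a difference of 0.73 (limma adjusted p = 8.03e-05). Crot, the peroxisomal carnitine octanoyltransferase, averaged 148 ± 4.10 CPM in CDKO and 92.7 ± 8.55 CPM in control, a difference of 0.67. Cpt1c, a CPT1 paralogue best known from neurons, averaged 8.96 ± 2.06 CPM in CDKO and 3.21 ± 0.749 CPM in control, and rose by 1.24 (0.76 with a pseudocount of 5 CPM). Acbd3, a Golgi protein with an acyl-CoA binding domain, averaged 60.3 ± 2.90 CPM in CDKO and 101 ± 2.87 CPM in control, and fell by 0.73. Cpt1b, the muscle form of CPT1, was not tested, at a mean of 0.0182 CPM in CDKO and 0 in control. In these pools Cpt1a was therefore the CPT1 gene with by far the most reads.

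The acyl-CoA dehydrogenases differ by the chain length of their substrates. Acadvl encodes the very-long-chain enzyme of the inner membrane. It had 208, 215 and 230.4 CPM in CDKO, against 153, 165 and 167 CPM in control. All CDKO pools lay above all control pools, and the mean was 1.35 times that of control. The difference was 0.43 ± 0.05 (SE, limma adjusted p = 2.68e-05).

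Acadm and Acadl encode the medium-chain and long-chain enzymes of the matrix. Acadm had 106, 116 and 114 CPM in CDKO, against 87.6, 97.9 and 99.0 CPM in control. Acadl had 115, 110.3 and 112 CPM in CDKO, against 99.0, 95.6 and 91.9 CPM in control. Neither gene overlapped between groups. The difference of Acadm was 0.24 ± 0.06 (SE, limma adjusted p = 0.00482) and that of Acadl 0.23 ± 0.05 (SE, limma adjusted p = 0.00161).

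The dehydrogenases were compared with each other inside each library, where sequencing depth cancels. The Acadl to Acadm ratio was 1.09, 0.950 and 0.981 in CDKO and 1.13, 0.976 and 0.928 in control, and overlapped (exact two-sided permutation test, p = 1). The Acadvl to Acadm ratio was 1.97, 1.85 and 2.02 in CDKO and 1.74, 1.68 and 1.68 in control, with no overlap (exact two-sided permutation test, p = 0.1, the smallest p that 3 against 3 allows, 0.25 adjusted over 5 ratios). Part of the counted length of Acadvl is shared: 1151 bases of its annotated exons overlap exons of Dvl2 on the opposite strand. Dvl2 itself averaged 69.2 ± 5.15 CPM in CDKO and 58.9 ± 2.48 CPM in control (log2 difference 0.23, limma adjusted p = 0.0117). The labels do not state whether counting used strand, so reads of these genes cannot be told apart there.

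**Figure D2:**
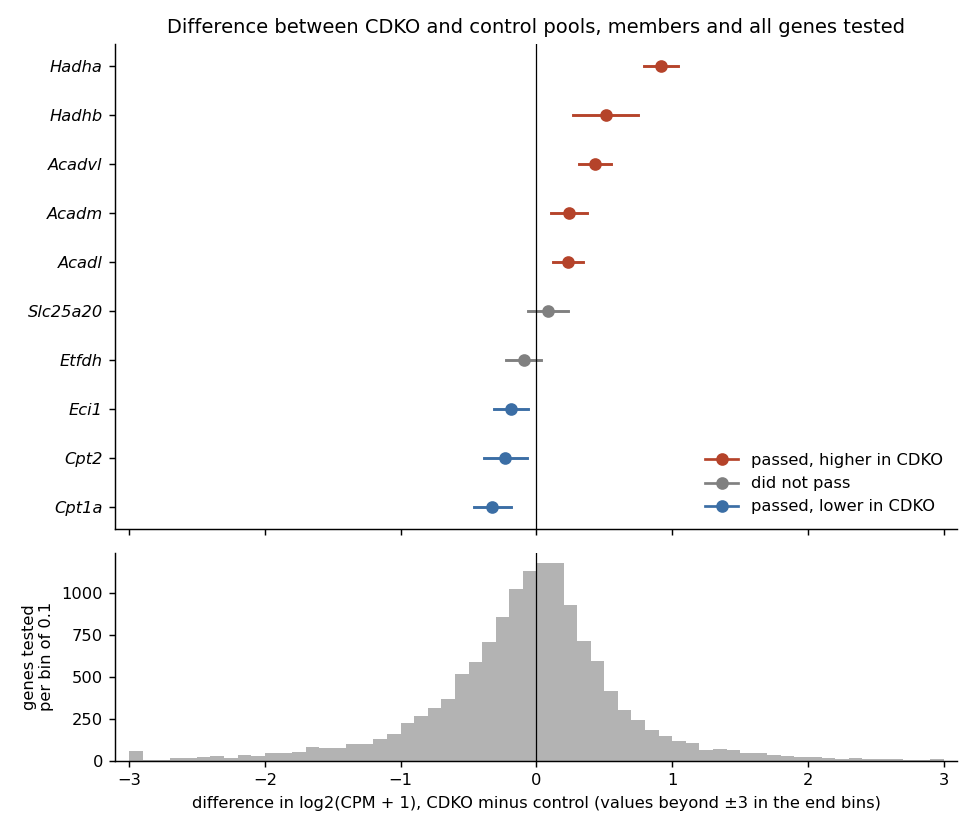
Difference in log2(CPM + 1), CDKO minus control, for each of the 10 genes (point) with its 95% interval (line), above the distribution of the same difference over all genes tested (number of genes per bin). The intervals of Slc25a20 and Etfdh cross 0, Hadha lies at 0.92, and Cpt1a lies lowest at -0.32.

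Hadha and Hadhb encode the α and β subunits of the mitochondrial trifunctional protein, which carries out hydration, the second dehydrogenation and thiolysis of long-chain intermediates. The genes lie head to head on chromosome 5. In RefSeq on GRCm38.p6 (mm10) Hadha starts at position 30154980 on the minus strand and Hadhb at 30155253 on the plus strand, 273 bases apart. The promoter window of Hadha is shown because the data bear on both genes of the pair. It spans 250 bases before to 50 after the RefSeq start, chr5:30154931-30155230, minus strand. Its capitals mark the 228 bases (30155003 to 30155230) that also lie in the window of Hadhb. The GENCODE coding transcript of Hadha used here for its length starts inside this window, at 30155162, 182 bases upstream of the RefSeq start.
Hadha: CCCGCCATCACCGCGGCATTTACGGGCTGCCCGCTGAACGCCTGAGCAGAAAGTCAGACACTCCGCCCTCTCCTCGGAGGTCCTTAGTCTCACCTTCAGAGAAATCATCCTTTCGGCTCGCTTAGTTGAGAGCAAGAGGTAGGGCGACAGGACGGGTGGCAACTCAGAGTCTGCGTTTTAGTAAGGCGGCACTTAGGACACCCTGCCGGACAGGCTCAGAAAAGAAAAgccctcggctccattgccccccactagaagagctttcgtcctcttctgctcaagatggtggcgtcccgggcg

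Hadha had 185, 179 and 169 CPM in CDKO, against 87.5, 95.4 and 98.0 CPM in control. The lowest CDKO pool lay well above the highest control pool. The means were 177 ± 7.93 CPM in CDKO and 93.6 ± 5.48 CPM in control (SD, n = 3 each), a difference of 0.92 ± 0.06 (SE, limma adjusted p = 3.28e-07). This was the largest difference of the 10 genes, and 15.5% of all genes tested had a larger one in absolute value.

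Hadhb had 42.8, 32.4 and 35.8 CPM in CDKO, against 23.1, 26.2 and 27.5 CPM in control. The groups did not overlap, and CDKO replicate 1 was highest. The difference was 0.51 ± 0.11 (SE, limma adjusted p = 0.00163). The level of Hadhb is uncertain, because 62.4% of the 50-base stretches of its transcript also occur in transcripts of other genes, 61.5% in the processed pseudogene Gm13910. Gm13910 and a further such pseudogene, Gm9108, were not analysed here.

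The Hadha to Hadhb ratio was 4.31, 5.51 and 4.71 in the CDKO pools, against 3.78, 3.64 and 3.57 in the control pools. The ratio was higher in every CDKO pool than in every control pool, by 0.40 on the log2 scale (exact two-sided permutation test, p = 0.1, the smallest possible, 0.25 adjusted over 5 ratios). Both genes of the divergent pair thus rose, Hadha by more than Hadhb in the counts.

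Eci1 encodes an isomerase that moves double bonds of unsaturated chains into place for oxidation. It had 78.8, 82.5 and 83.7 CPM in CDKO, against 98.9, 90.5 and 90.4 CPM in control. All CDKO pools lay below all control pools, and the difference was -0.19 ± 0.06 (SE, limma adjusted p = 0.0119). Without control replicate 1 the limma adjusted p was 0.0510.

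Etfdh encodes the dehydrogenase that passes electrons from the flavoprotein to ubiquinone. It had 92.6, 95.2 and 89.7 CPM in CDKO, against 106, 94.3 and 96.2 CPM in control. The groups overlapped and the difference of -0.09 did not pass (95% interval -0.22 to 0.03, limma adjusted p = 0.176). The flavoprotein subunit genes Etfa and Etfb, by contrast, both passed. Etfb averaged 263 ± 7.68 CPM in CDKO and 201 ± 6.11 CPM in control, and Etfa averaged 142 ± 3.02 CPM in CDKO and 114 ± 1.24 CPM in control, differences of 0.39 and 0.31.

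Levels of different genes were compared per kilobase of the longest RefSeq-matched coding transcript. In CDKO Acadvl was highest at 100.5 CPM per kb, followed by Eci1 at 71.8, Acadl at 58.7, Acadm at 54.7, Hadha at 44.2, Cpt1a at 42.1, Etfdh at 38.9, Slc25a20 at 31.3, Cpt2 at 26.2 and Hadhb at 18.1 CPM per kb. Hadha overlapped with Cpt1a over the CDKO pools, and Cpt1a with Etfdh. In control Eci1 was highest at 82.0 CPM per kb, followed by Acadvl at 74.4, Cpt1a at 52.7, Acadl at 49.8, Acadm at 46.3, Etfdh at 41.6, Cpt2 at 30.9, Slc25a20 at 29.5, Hadha at 23.3 and Hadhb at 12.5 CPM per kb. Over the control pools Cpt1a overlapped with Acadl, Acadl with Acadm, Acadm with Etfdh, and Cpt2 with Slc25a20. With these lengths Hadha stood next to last in control and in the middle of the order in CDKO. The order depends on the transcript chosen for each gene, which was 4017 bases long for Hadha. Other lengths were not tried. The 10 genes together summed to 1109 to 1148 CPM in CDKO and 996 to 1034 CPM in control. This sum is weighted to genes with many reads and does not show a joint rise, since 5 genes rose and 3 fell. Mean Hadha went from 93.6 CPM in control to 177 CPM in CDKO and Acadvl from 161 to 218 CPM. Cpt1a went from 228 CPM in control to 182 CPM in CDKO.

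A promoter window was found in RefSeq's table for all 10 genes and searched on both strands for 3 motifs of nuclear receptors. The NR4A monomer element AAAGGTCA was in 0 of the 10 windows, against 1.51% of all 32851 mouse promoter windows. The ESRRA element TCAAGGTCA was in 0 of 10, against 0.423% of all windows. The half-site AGGTCA, which lies within both longer motifs, was in 3 of 10, against 16.3% of all windows. The windows with a half-site, those of Acadvl, Acadm and Cpt1a, are shown with it in capitals, read on the opposite strand (TGACCT) in Acadm and Cpt1a. It begins 87 bases before the start in Acadvl (chr11:70015379-70015678, minus strand), 249 before in Acadm (chr3:153944594-153944893, minus strand) and 94 before in Cpt1a (chr19:3323051-3323350, plus strand). The window of Cpt1a is set on an inner start at 3323301, downstream of the outermost RefSeq start of the gene at 3322326 and 16 bases from the start of the GENCODE coding transcript used here for its length. The other 9 windows lie on the outermost RefSeq start, and 2 of those 9 hold a half-site. These genes differ in direction, since Acadvl and Acadm rose and Cpt1a fell. A match describes letters only and is no evidence of binding.
Acadvl: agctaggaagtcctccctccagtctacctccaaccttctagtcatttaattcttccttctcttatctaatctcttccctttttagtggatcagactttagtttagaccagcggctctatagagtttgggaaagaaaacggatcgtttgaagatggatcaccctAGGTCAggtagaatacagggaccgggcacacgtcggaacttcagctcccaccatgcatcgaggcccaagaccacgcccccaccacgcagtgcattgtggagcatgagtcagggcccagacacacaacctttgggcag
Acadm: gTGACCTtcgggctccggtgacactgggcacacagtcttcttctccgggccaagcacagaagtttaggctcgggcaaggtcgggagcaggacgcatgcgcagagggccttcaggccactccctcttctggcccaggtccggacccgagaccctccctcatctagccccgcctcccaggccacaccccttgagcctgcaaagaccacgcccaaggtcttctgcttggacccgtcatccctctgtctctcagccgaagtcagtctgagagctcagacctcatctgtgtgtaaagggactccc
Cpt1a: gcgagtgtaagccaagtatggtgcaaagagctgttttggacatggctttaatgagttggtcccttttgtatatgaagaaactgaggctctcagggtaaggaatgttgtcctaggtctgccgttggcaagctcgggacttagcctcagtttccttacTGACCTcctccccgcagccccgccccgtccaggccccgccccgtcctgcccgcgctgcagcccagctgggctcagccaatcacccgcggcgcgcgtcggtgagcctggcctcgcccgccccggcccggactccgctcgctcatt

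A list of other matrix β-oxidation genes was also mixed, with more falls than rises. Of 23 tested, 6 rose and 12 fell, and the median difference was -0.21. The list also holds enzymes of amino acid and propionate breakdown, of which Acadsb, Ivd, Pcca, Pccb, Mcee and Mut fell. Acad8 of that kind rose and Gcdh did not pass. The balance of the list therefore does not stand for β-oxidation alone. Acad11, a dehydrogenase of very long chains, averaged 22.8 ± 3.97 CPM in CDKO and 57.7 ± 2.39 CPM in control, and fell by 1.31 (limma adjusted p = 1.87e-06). Acad9, which also serves complex I assembly, averaged 56.9 ± 3.07 CPM in CDKO and 90.7 ± 4.49 CPM in control, and fell by 0.66. Hadh, the dehydrogenase that handles shorter chains than the trifunctional protein does, averaged 127 ± 10.8 CPM in CDKO and 179.9 ± 0.984 CPM in control, and fell by 0.50. Hadh and Hadha, which catalyse the same step at different chain lengths, thus changed in opposite directions. Decr1, Eci2 and Acaa2 of the same list rose, by 0.47, 0.28 and 0.22. Whether the 10 genes differ from these 23 was not tested.

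In peroxisomes, where very long chains are shortened first, 4 of 17 genes rose and 8 fell (median -0.13). Pecr, a trans-enoyl-CoA reductase, averaged 11.3 ± 1.09 CPM in CDKO and 28.7 ± 1.88 CPM in control, and Amacr, a racemase of branched chains, 2.76 ± 2.30 CPM in CDKO and 11.9 ± 0.670 CPM in control. Both fell. Hsd17b4, the bifunctional enzyme of that route, averaged 141 ± 1.92 CPM in CDKO and 109 ± 7.05 CPM in control, and rose by 0.37.

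**Figure D3:**
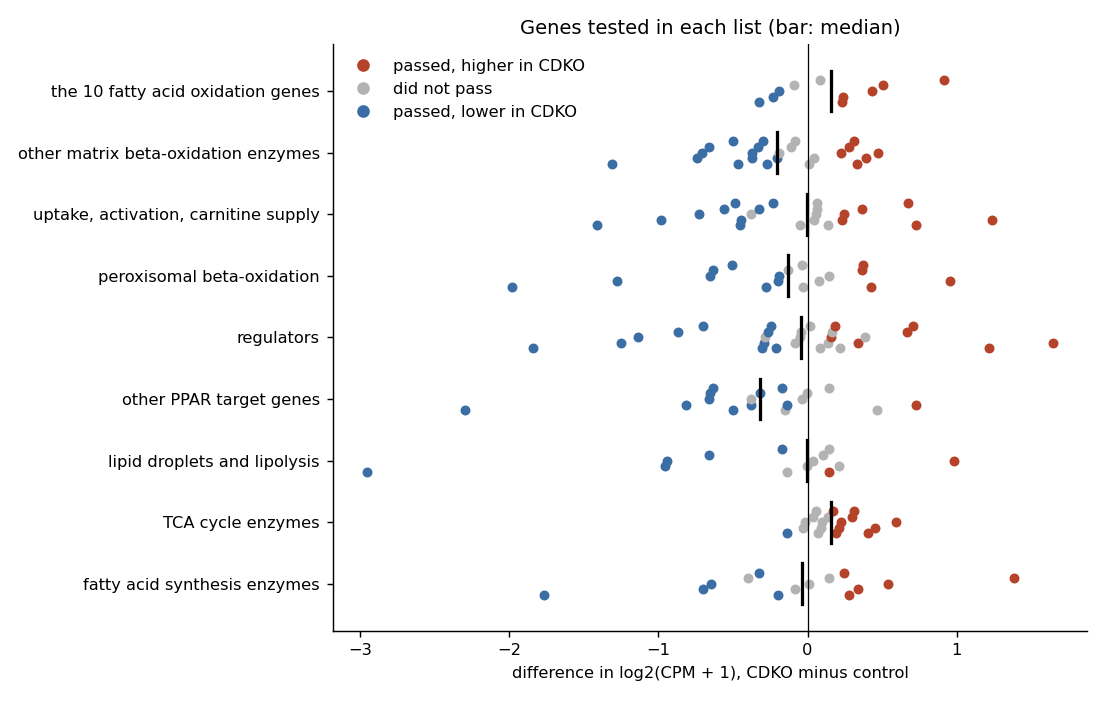
Difference in log2(CPM + 1), CDKO minus control (horizontal axis), of each tested gene in the 10 fatty acid oxidation genes and in 8 lists of related genes (points), with the median of each list (bar). Points lie on both sides of 0 in every list, and the medians run from -0.32 in other PPAR target genes to 0.16 in the 10 genes.

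Of 27 tested regulators of fatty acid oxidation 7 rose and 10 fell, with a median of -0.04. The smallest adjusted p among them was that of Acacb, which makes the malonyl-CoA that inhibits CPT1 at the mitochondrial surface. Acacb had 10.04, 10.13 and 8.39 CPM in CDKO, against 34.0, 37.3 and 38.6 CPM in control. It fell by 1.84 (limma adjusted p = 2.91e-07), and control had 3.85 times the CDKO mean. Acaca, the cytosolic counterpart, did not pass, with 22.9 ± 1.37 CPM in CDKO and 24.4 ± 1.98 CPM in control. Mlycd, which degrades malonyl-CoA, did not pass either, with 45.0 ± 1.48 CPM in CDKO and 40.9 ± 2.66 CPM in control (limma adjusted p = 0.121). The Cpt1a to Acaca ratio was 6.73, 8.21 and 8.99 in CDKO and 8.38, 10.2 and 9.46 in control, which overlapped (exact permutation p = 0.2, adjusted 0.333). The Cpt1a to Cpt2 ratio was 2.69, 2.97 and 3.09 in CDKO and 3.43, 3.13 and 2.80 in control, which overlapped as well (exact permutation p = 0.4, adjusted 0.5).

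The kinase genes Prkaa2 and Stk11, which act upstream of the carboxylases, fell. Prkaa2, a catalytic subunit of AMPK, averaged 11.2 ± 1.03 CPM in CDKO and 27.9 ± 1.75 CPM in control (log2 difference -1.248). Prkaa1, the other catalytic subunit gene, had more reads and fell less. It averaged 64.9 ± 2.15 CPM in CDKO and 75.3 ± 2.80 CPM in control (log2 difference -0.21, limma adjusted p = 0.00719). Stk11, which encodes the AMPK-activating kinase LKB1, averaged 32.3 ± 0.586 CPM in CDKO and 60.0 ± 6.10 CPM in control (log2 difference -0.87).

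The PPAR receptor genes had low levels and moved in different directions. Ppard had 1.06, 1.88 and 1.61 CPM in CDKO, against 4.91, 4.17 and 4.39 CPM in control, and fell by 1.14 (limma adjusted p = 0.000101). Pparg had 3.04, 2.56 and 1.73 CPM in CDKO, against 0, 0.247 and 0.0236 CPM in control, and rose by 1.65 on the log2(CPM + 1) scale. At such low levels the size depends on the pseudocount and tool: it ran from 0.54 to 4.82 for Pparg and from -1.54 to -0.54 for Ppard over the alternatives, all past the threshold. Ppara was not tested, with 0.0701 CPM in CDKO replicate 3 and no read elsewhere. Of the coactivators, Ppargc1a averaged 5.17 ± 1.03 CPM in CDKO and 1.89 ± 1.52 CPM in control, and Ppargc1b 37.1 ± 4.14 CPM in CDKO and 22.98 ± 2.58 CPM in control. Both rose, as did Pprc1, at 162 ± 13.8 CPM in CDKO and 98.7 ± 6.74 CPM in control. Pml averaged 442 ± 5.79 CPM in CDKO and 349 ± 18.6 CPM in control, a rise of 0.34. Esrra, a receptor that drives oxidative genes, did not pass, with 13.03 ± 1.97 CPM in CDKO and 11.5 ± 1.252 CPM in control.

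**Figure D4:**
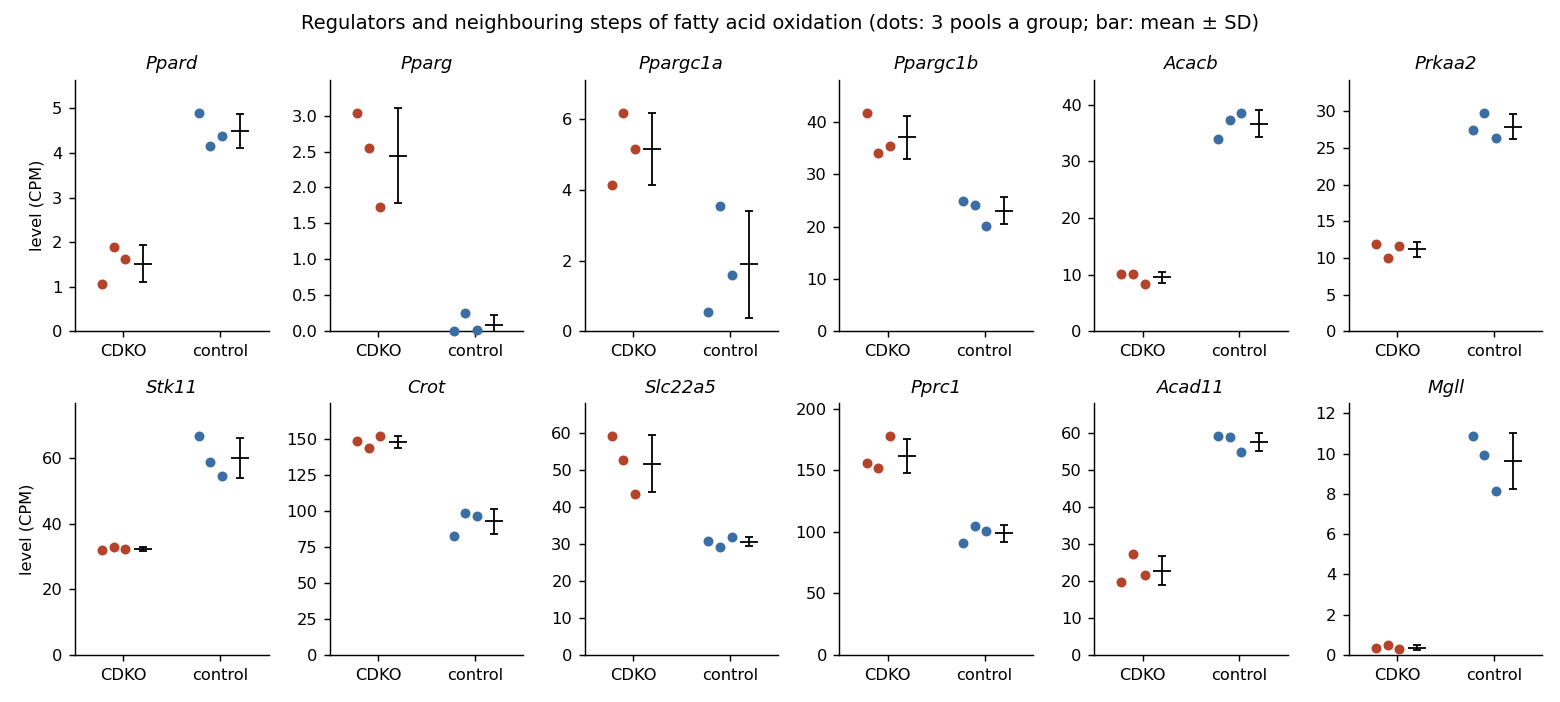
Level in CPM (vertical axis, from 0) of regulators and neighbouring steps of fatty acid oxidation, CDKO pools left and control pools right. Dots are pools and bars are the mean ± SD; the lower bar of Pparg ends at the axis. Acacb, Prkaa2, Stk11, Ppard, Acad11 and Mgll lie lower in CDKO, and Pparg, Ppargc1a, Ppargc1b, Pprc1, Crot and Slc22a5 lie higher.

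Of 17 other PPAR target genes tested 1 rose and 10 fell (median -0.32); the list shares some genes, Slc22a5 among them, with lists above. Txnip, a thioredoxin-binding arrestin, averaged 674 ± 56.2 CPM in CDKO and 839 ± 43.3 CPM in control, and fell by 0.32. The one rise was that of Slc22a5. Cpt1a, itself a classic PPAR target, fell as well, whereas Acadm, Acadvl and Hadha, which PPARs also regulate in liver and muscle, rose.

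The tricarboxylic acid cycle receives the acetyl-CoA that oxidation releases. Of its 18 enzyme genes 9 rose and 1 fell, with a median of 0.15. Over all genes tested 66.2% passed, 31.1% higher in CDKO and 35.2% lower. Whether the list differs from these shares was not tested. Sdhb, the iron-sulfur subunit of succinate dehydrogenase, averaged 192 ± 6.21 CPM in CDKO and 127 ± 4.52 CPM in control (log2 difference 0.60, limma adjusted p = 1.46e-06). The succinyl-CoA ligase genes Sucla2 and Suclg2 rose by 0.45 and 0.40, and Idh3a, a subunit of isocitrate dehydrogenase, rose by 0.30. The other 8 genes did not pass. No test set this list against the 10 genes.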

How the data were processed

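RNA from sorted HSC was amplified with a SMARTer Ultra Low Input kit and made into Nextera XT libraries, per the labels' protocols. TopHat2, HTSeq, DESeq2 and mm10 are named per the submitters' processing notes; the annotation and strand setting are not given in the sources used here. The deposited values are CPM per gene and library. Whole reads were recovered from them for 99.9989% of values, to within 0.01 of a read. The authors' DESeq2 results are in the same table: a deposited signal (baseMean), log2 fold change of control over CDKO, score (stat) and p-value.

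limma 3.58.1 (R 4.3.3; eBayes with trend) was fitted to log2(CPM + 1) of all genes with a mean of at least 10 reads (0.255 CPM), CDKO minus control, with Benjamini-Hochberg adjustment at 0.05. Of the listed genes, 7104 had no read, and 12 bearing a date in place of a symbol were kept out. Folds are ratios of mean CPM. edgeR 4.0.16, DESeq2 1.42.0 (both on recovered reads), scaling, filters, pseudocounts, left-out libraries, a replicate block and a GC and length correction were alternatives. Libraries of 1 group differed by more than sampling noise. Gene positions and copies come from GENCODE M21 on GRCm38, promoters from RefSeq on GRCm38.p6; no protein sequence was used here.

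The 10 genes and all lists were chosen with earlier results of these data known. Named are the 10 genes, the NR4A genes, fixed PPAR, coactivator and malonyl-CoA genes, up to 4 genes of smallest p in each pathway list, and up to 3 most abundant in marker lists; some of these are not reported here. Cpt1b, Etfa, Dvl2, markers with no read and further macrophage, lymphocyte and stromal markers were named after their values were seen. So were Prkaa1, Eci2, Decr1, Acaa2, Gzmb and the enzymes of amino acid and propionate breakdown. The floor of 3 reads covers counting error only.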

Additional observations from a re-analysis of the deposited data

How the results depend on the processing

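Of the 10 genes, 8 passed under every one of 17 alternatives other than leaving out a control pool. There 7 passed each time, and none of the 10 genes changed direction under any alternative. Over all genes the count that passed ran from 6576 of 9886 tested, with a filter of 10 CPM, to 9242 of 13734, with the replicate block. Without a control pool the calls lost were those of Eci1 (replicate 1) and Cpt2 (replicates 2 and 3), whose values stand in the report. Acaca turned to 0.077 under the GC and length correction, and did not pass in either. The log2 difference of the Acadl to Acadm ratio ran from -0.064 to 0.077 when single pools were left out, and was 0.04 and 0.01 without CDKO replicates 2 and 3; it was near 0 throughout. The cause was not tested. The labels do not say whether replicate numbers pair the pools. Correlations of deviations were 0.05, 0.05 and -0.01 for the same number, and -0.07 to 0.03 for different numbers. Such correlations cannot decide it, because they do not show how pools were handled. With the replicate block 9242 genes passed against 9097, and 8 of the 10 genes. Nr4a2 passed with the block (limma adjusted p = 0.0314), without CDKO replicate 3 (0.0141) and with a pseudocount of 5 CPM (0.0396), and Mlycd under the GC and length correction (0.00638), which covered 95.2% of genes and moved the median of all genes by 0.08 on the log2 scale. Sizes of low genes moved most with the pseudocount or tool, as with Pparg, Ppard and Mgll, while their direction did not change. With 3 pools a group no exact permutation test could fall below 0.1.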

Other observations

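Lipid storage and synthesis were described beside oxidation. Of 13 lipid droplet and lipolysis genes tested, 2 rose and 5 fell. Mgll, the monoglyceride lipase that completes release of fatty acids from stored fat, had 0.335, 0.482 and 0.281 CPM in CDKO, against 10.9, 9.93 and 8.12 CPM in control, and fell by 2.96 on the log2(CPM + 1) scale (limma adjusted p = 1.35e-07). Its difference ran from -4.70 to -1.44 over the alternatives of pseudocount, tool and libraries. Dgat1, which makes triglyceride, averaged 26.8 ± 1.47 CPM in CDKO and 42.8 ± 1.79 CPM in control. Plin4, a droplet coat protein, averaged 0.0912 ± 0.0429 CPM in CDKO and 1.098 ± 0.200 CPM in control, and both fell. Lpl, lipoprotein lipase, averaged 2.91 ± 1.13 CPM in CDKO and 0.929 ± 0.258 CPM in control, and rose.

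Of 14 fatty acid synthesis genes 5 rose and 5 fell. The stearoyl-CoA desaturase genes fell, Scd2 at 327 ± 17.5 CPM in CDKO and 512 ± 21.5 CPM in control, and Scd1 at 0.169 ± 0.0360 CPM in CDKO and 3.03 ± 0.649 CPM in control. The elongase gene Elovl6 averaged 68.9 ± 2.31 CPM in CDKO and 47.0 ± 1.55 CPM in control, and Me1, which encodes a source of NADPH, 14.4 ± 2.46 CPM in CDKO and 4.89 ± 0.581 CPM in control. Both rose.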
